A study of Mus musculus with 6 samples.

Results

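Ion channel genes were followed in mouse N2a neuroblastoma cells given RSL3 or its solvent DMSO. The set holds every mRNA row whose symbol begins with Kcn, Cacn, or Scn and a digit, or is an Hcn gene numbered up to 4 or a TRPA, TRPC, TRPM or TRPV gene. It came to 49 of the 11609 mRNA genes listed, against 160 protein-coding genes of GENCODE M21 with such a symbol, and the others are not analysed here. All cells had been differentiated with 10 µM retinoic acid in medium with 2% serum, renewed daily for 96 h. The RSL3 group then received 5 µM RSL3 for 24 h, and the DMSO group its solvent, kept at the same concentration, with 3 libraries each. RSL3 binds and inhibits the lipid peroxide-reducing enzyme GPX4 and is used to induce ferroptosis, an iron-dependent form of cell death. N2a is a single tumour line, and its cells are a model of neurons rather than neurons. Nothing in the labels tells if replicates were grown apart, so p-values measure only the spread between these libraries. Each library was made from a whole culture, so fewer cells of a type and less RNA per cell cannot be told apart.

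Voltage-gated channels open when the membrane potential changes. Sodium channels carry the upstroke of the action potential, potassium channels repolarise the cell and set its resting potential, and calcium channels couple depolarisation to secretion and signalling. A channel is built from pore-forming subunits, which conduct the ion, and auxiliary subunits, which set its surface level and gating. HCN channels carry a depolarising current that opens on hyperpolarisation, and TRP channels are cation channels opened by temperature, lipids, calcium or mechanical stress. Several of these genes are studied in sensory neurons as regulators of pain signalling.

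The values are FPKM, fragment counts scaled to transcript length and library size, a scale on which levels of different genes can be compared. Read depth cannot be recovered from them and is unknown. The summed mRNA values were 200135, 213765 and 211874 FPKM in RSL3 replicates 1, 2 and 3, and 225295, 224970 and 220605 FPKM in DMSO replicates 1, 2 and 3. Gpx4 itself averaged 151 ± 12.6 FPKM with RSL3 and 158 ± 2.66 FPKM with DMSO (SD, n = 3). Of 16 neuroblastoma and neuron markers, 13 were among the genes listed, with sums of 352 to 397 FPKM in RSL3 libraries and 429 to 434 FPKM in DMSO libraries. Of these, 12 were tested, and 3 fell with RSL3, while 0 passed as higher. Dbh, which makes noradrenaline, averaged 1.21 ± 0.240 FPKM with RSL3 and 5.46 ± 0.477 FPKM with DMSO (log2 fold change -1.55, limma adjusted p = 0.00230). The growth cone gene Gap43 averaged 28.8 ± 1.01 FPKM with RSL3 and 37.3 ± 1.49 FPKM with DMSO (-0.37, adjusted p = 0.0181). Tubb3, the neuronal tubulin gene, averaged 115 ± 2.25 FPKM with RSL3 and 116 ± 1.02 FPKM with DMSO and did not pass (adjusted p = 0.910). Of 5 astrocyte, 5 oligodendrocyte and Schwann, 5 microglia and macrophage, 5 fibroblast and 3 endothelial markers, 1, 2, 1, 2 and 1 were listed, and no such list summed above 7.20 FPKM in an RSL3 library or 5.85 FPKM in a DMSO library. All 10 liver markers were listed and summed to 16.3 to 28.3 FPKM with RSL3 against 64.1 to 92.5 FPKM with DMSO. Of 5 muscle markers only Myh3 was listed, at 51.3 to 56.2 FPKM with RSL3 and 49.4 to 55.6 FPKM with DMSO. Whether these differences bear on the channel values was not tested.

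Most channel genes were expressed at low levels. The median of their 6-library means was 2.68 FPKM, against 6.42 FPKM over all mRNA genes, and 39 of the 49 lay below the median level of all mRNA genes. There were 6 members at 10 FPKM or more, 20 from 2 up to 10 FPKM, 7 from 1 up to 2 FPKM and 16 under 1 FPKM. The deposited list itself ended near 0.5: in every mRNA gene the larger group mean was at least 0.5 FPKM. In 5 members the mean of the other group lay under 0.5 FPKM. These 5 were in the table through a single group, Kcnd1, Kcnh6, Kcnu1 and Scn3a through RSL3 and Kcnma1 through DMSO.

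**Figure D1:**
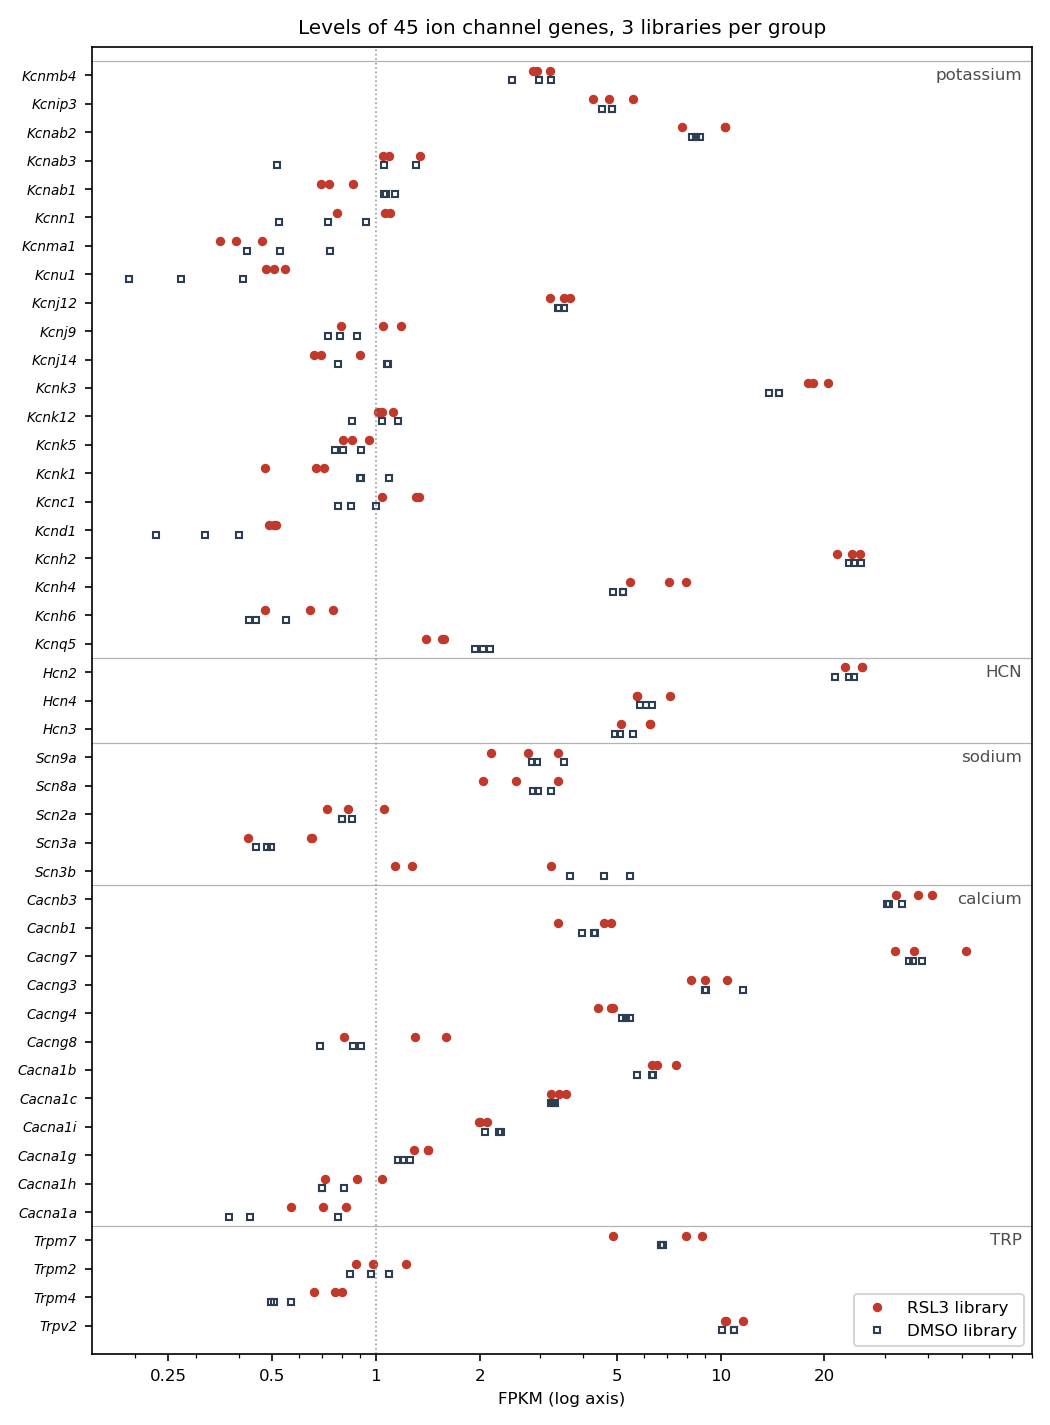
FPKM (log axis) of 45 of the channel genes in each RSL3 library (filled circles) and DMSO library (open squares), grouped by ion, with a dotted line at 1 FPKM. Cacng7, Cacnb3, Kcnh2, Hcn2, Kcnk3 and Trpv2 average at least 10 FPKM, and the RSL3 and DMSO libraries do not overlap in 12 of the 45 rows.

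In order of level, the leading members were auxiliary subunits of calcium channels and AMPA receptors, an ERG potassium channel and an HCN channel. Cacng7 led with 40.0 ± 10.3 FPKM with RSL3 and 36.6 ± 1.72 FPKM with DMSO. It was followed by Cacnb3 (36.8 ± 4.42 and 31.6 ± 1.76 FPKM), Kcnh2 (23.7 ± 1.83 and 24.5 ± 1.01 FPKM), Hcn2 (24.8 ± 1.64 and 23.2 ± 1.51 FPKM), Kcnk3 (19.0 ± 1.31 and 14.5 ± 0.532 FPKM) and Trpv2 (10.7 ± 0.728 and 10.6 ± 0.459 FPKM), each with RSL3 first (SD, n = 3). In the DMSO libraries Cacng7 and Cacnb3 did not overlap, nor did Cacnb3 and Kcnh2, while Kcnh2 and Hcn2 did. From Kcnk12 at 1.02 FPKM with DMSO down to Kcnh6 at 0.475 FPKM, no neighbours in the order were separated by their DMSO libraries.

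RSL3 and DMSO libraries were compared for all mRNA genes in limma, on log2(FPKM + 1), with Benjamini-Hochberg adjustment over all tested genes. A gene was tested if it reached 1 FPKM in at least 3 of the 6 libraries. This held for 33 of the 49 members. Of these, 1 passed at an adjusted p under 0.05, Kcnk3, which was higher with RSL3, and 0 passed as lower. Over all 10590 tested genes 6.38% passed, 2.46% as higher and 3.92% as lower; after quantile normalization 350 genes passed as higher and 329 as lower, against 261 and 415 here. An unadjusted p under 0.05 was reached by 7 members, or 21.2%, against 24.1% of all tested genes. The groups did not overlap in 10 of the 33, or 30.3%, against 33% of all tested genes. With RSL3 higher there were 6 and with RSL3 lower 4, against 13.4% and 19.6% of all tested genes. The shares of members by unadjusted p and by overlap lay near the background. Of the 33 fold changes, 23 were above 0 and 10 below, so that 69.7% were above 0 against 43.6% of all tested genes. Their median was 0.04, where that of all tested genes was -0.03. This gap depended on the setting. Without RSL3 replicate 1 the medians were 0.014 for members and 0.009 for all tested genes. With length and GC trends removed they were 0.013 and 0.004. Without RSL3 replicate 2 they were 0.072 and -0.051, and without RSL3 replicate 3 they were 0.047 and -0.054. The filter let Kcnab1 through on its DMSO values alone, so these counts describe the tested members and no more.

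For 31 of the 33 tested members the 95% interval lay within a 2-fold change in either direction, and for 28 within 1.5-fold, on the log2(FPKM + 1) scale, which understates changes of low genes. Over all 10590 tested genes this held for 10304 and 8730, so the members lay near the background. Scn3b had one of the widest intervals (-1.63 to -0.40), and its libraries scattered within both groups.

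**Figure D2:**
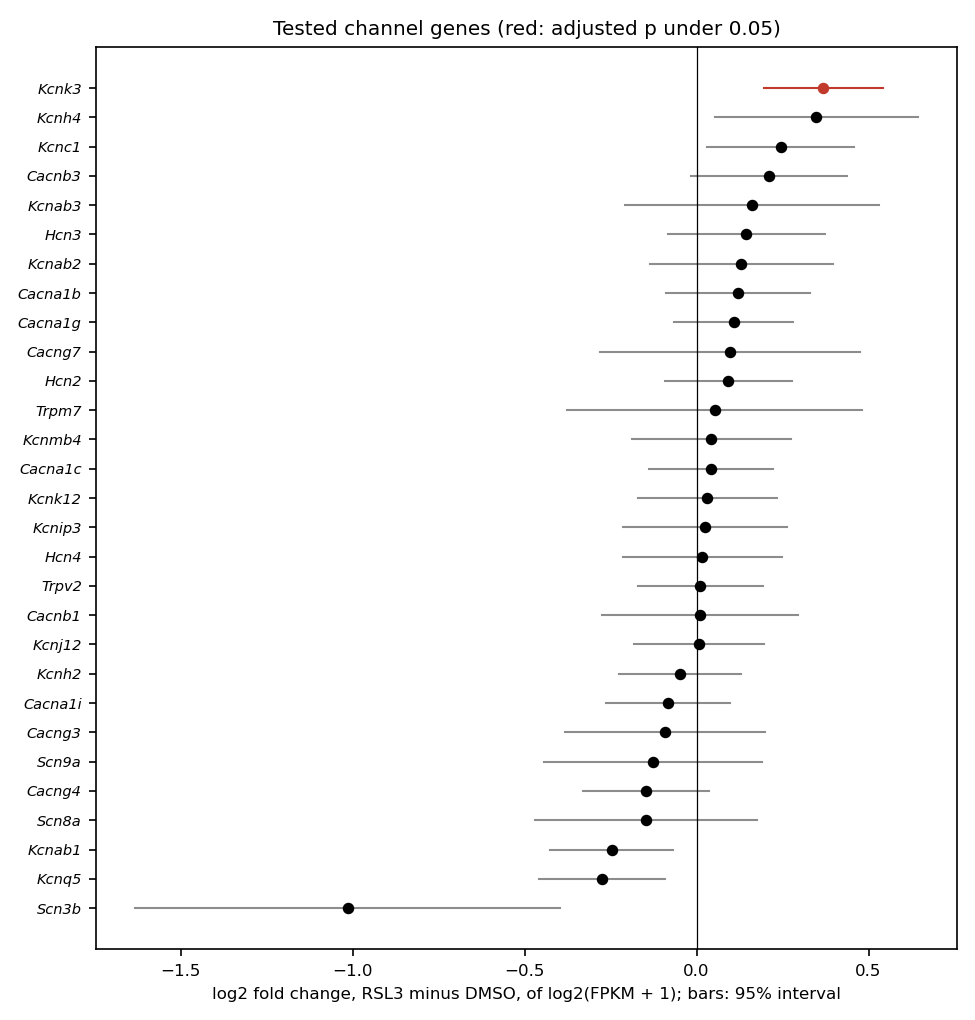
Log2 fold change of RSL3 over DMSO on the log2(FPKM + 1) scale for 29 of the tested channel genes, with 95% intervals from the limma fit (n = 3 libraries a group). Kcnk3, in red at 0.37, is the gene past the threshold; Scn3b at -1.01 has the lowest value and a wide interval.

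Among potassium channels, the tandem pore domain gene Kcnk3 rose with RSL3. Kcnk3 (ENSMUSG00000049265.7, GRCm38 chromosome 5, 30588170 to 30625271, plus strand) encodes TASK-1, an acid-sensitive leak channel that helps to hold the resting potential. It stood at 20.5, 18.0 and 18.5 FPKM in RSL3 replicates 1, 2 and 3, and at 13.9, 14.8 and 14.8 FPKM in DMSO replicates 1, 2 and 3. The groups did not overlap, with RSL3 higher, and the means stood in a ratio of 1.31. The log2 fold change was 0.37 ± 0.07 (SE; 95% interval 0.20 to 0.54; limma adjusted p = 0.0322). The call was lost with the replicate block (adjusted p = 0.106) and without DMSO replicate 1, 2 or 3 or RSL3 replicate 3 (adjusted p = 0.163, 0.124, 0.122 and 0.0992), at fold changes of 0.34 to 0.38. It held without RSL3 replicate 1 (0.32, adjusted p = 0.0200) and with length and GC trends removed (0.29, adjusted p = 0.0107). Exons of an antisense gene overlap exons of Kcnk3 (Gm9899), of Kcnq5 (Gm26580) and of Kcnab1 (A330015K06Rik). No source used here tells if strand was used in counting, so reads of these pairs cannot be told apart.

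The other tandem pore domain genes were low. Kcnk12 averaged 1.06 ± 0.0552 FPKM with RSL3 and 1.02 ± 0.156 FPKM with DMSO (log2 fold change 0.03, limma adjusted p = 0.865). Kcnk1, which encodes TWIK-1, was not tested; it stood at 0.478, 0.707 and 0.668 FPKM with RSL3 and at 0.898, 1.09 and 0.904 FPKM with DMSO, and the groups did not overlap. Kcnk5 averaged 0.869 ± 0.0783 and 0.823 ± 0.0752 FPKM with RSL3 and DMSO. The class summed to 23.0, 20.5 and 21.1 FPKM in the RSL3 libraries against 16.4, 17.8 and 17.6 FPKM in the DMSO libraries, and most of that sum was Kcnk3.

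Voltage-gated potassium channels of the Kv10 to Kv12 group were led by Kcnh2. Kcnh2 encodes the ERG1 channel, which carries a repolarising current. It stood at 25.4, 21.8 and 24.0 FPKM with RSL3 and at 23.6, 25.6 and 24.4 FPKM with DMSO, with overlapping groups (-0.05, 95% interval -0.23 to 0.13, limma adjusted p = 0.751). Kcnh4, an ELK-type channel gene of the same group, stood at 7.95, 5.46 and 7.08 FPKM with RSL3, all above its 5.21, 4.87 and 5.22 FPKM with DMSO. It did not pass (0.35 ± 0.13, limma adjusted p = 0.148), except without RSL3 replicate 2 (0.48, adjusted p = 0.0351). Kcnh6, an ERG-type gene, was under the filter at 0.625 ± 0.139 FPKM with RSL3 and 0.475 ± 0.0642 FPKM with DMSO.

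The Kv7 gene Kcnq5 encodes a subunit of the M-current, a slow potassium current that restrains repetitive firing. Kcnq5 (ENSMUSG00000028033.16, chromosome 1, 21398403 to 21961942, minus strand) stood at 1.40, 1.58 and 1.55 FPKM with RSL3 and at 1.93, 2.14 and 2.05 FPKM with DMSO. Its RSL3 libraries all lay below its DMSO libraries, and the means were in a ratio of 0.740. It did not pass (-0.28 ± 0.08, 95% interval -0.46 to -0.09, limma adjusted p = 0.0826), and passed with length and GC trends removed (-0.23, adjusted p = 0.0422).

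Among the Kv1 to Kv4 pore genes, Kcnc1 and Kcnd1 were low. Kcnc1, a fast delayed rectifier, stood at 1.3, 1.04 and 1.33 FPKM with RSL3 and at 1.00, 0.849 and 0.778 FPKM with DMSO; the groups did not overlap, and it did not pass (0.25 ± 0.09, limma adjusted p = 0.157). Kcnd1, an A-type channel gene, was under the filter at 0.503 ± 0.0123 FPKM with RSL3 and 0.317 ± 0.0855 FPKM with DMSO.

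Upstream sequence is shown for 3 of the potassium channel genes whose groups did not overlap, Kcnh4, Kcnc1 and Kcnq5, and for Hcn2, the HCN gene with the highest level. Each run is the 250 bases before a start site in RefSeq on GRCm38.p6, written 5′ to 3′ on the gene's strand, with capitals marking the GC box GGGCGG on either strand. Kcnh4 is at chr11:100759779-100760028 (minus strand), Kcnc1 at chr7:46396218-46396467 (plus), Kcnq5 at chr1:21961943-21962192 (minus) and Hcn2 at chr10:79716384-79716633 (plus).
Kcnh4: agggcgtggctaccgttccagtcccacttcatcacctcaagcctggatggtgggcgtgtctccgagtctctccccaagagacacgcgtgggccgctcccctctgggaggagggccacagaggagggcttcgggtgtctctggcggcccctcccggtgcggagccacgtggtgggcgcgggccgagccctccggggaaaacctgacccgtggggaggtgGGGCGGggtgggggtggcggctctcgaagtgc
Kcnc1: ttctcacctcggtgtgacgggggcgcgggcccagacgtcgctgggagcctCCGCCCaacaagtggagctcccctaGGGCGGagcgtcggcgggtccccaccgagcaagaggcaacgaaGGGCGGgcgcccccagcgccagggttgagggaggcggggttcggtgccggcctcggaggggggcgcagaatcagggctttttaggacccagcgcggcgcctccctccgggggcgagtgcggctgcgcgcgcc
Kcnq5: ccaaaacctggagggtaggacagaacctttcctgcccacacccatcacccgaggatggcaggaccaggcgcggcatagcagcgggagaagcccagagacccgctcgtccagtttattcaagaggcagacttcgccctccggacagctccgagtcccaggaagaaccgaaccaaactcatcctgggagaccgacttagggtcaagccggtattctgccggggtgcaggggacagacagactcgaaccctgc
Hcn2: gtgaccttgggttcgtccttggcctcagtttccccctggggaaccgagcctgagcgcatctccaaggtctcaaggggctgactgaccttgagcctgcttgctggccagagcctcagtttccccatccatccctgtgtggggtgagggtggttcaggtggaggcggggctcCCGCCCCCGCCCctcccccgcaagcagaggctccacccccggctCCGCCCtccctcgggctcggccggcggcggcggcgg
The table held entries for 32 of the 49 members, 48 entries in all because some genes have several starts. The GC box was found in 20 of these 48 and in 32.7% of all 32851 entries of that length. The core of the antioxidant response element, TGACNNNGC, was in 7 of 48 and in 10.2% of all. The left part of the RE1 element bound by the neuronal repressor REST, TCAGCACC, was in 1 of 48, that of Kcnh6, and in 1.32% of all. Both strands were searched, and matches of different motifs did not overlap in any of the 48. Median GC content of the 250 bases was 58.0% for members and 52.4% for all. Kcnh4 and Kcnc1, with GC boxes, stood above DMSO, and Kcnq5, with no match to these motifs, below. Below DMSO also stood Kcnab1, which had GC boxes, and Kcnk1, with no match. Kcnk3 had no entry. A match is a description of letters and was not related to the expression values by a test.

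Inward rectifiers and the SK and Slo family channels were low, and only Kcnu1 among them did not overlap between the groups. Kcnj12, which encodes the strong inward rectifier Kir2.2, stood at 3.20, 3.66 and 3.51 FPKM with RSL3 and 3.52, 3.40 and 3.38 FPKM with DMSO (0.01, 95% interval -0.18 to 0.20, limma adjusted p = 0.972). Kcnj9, a G protein-coupled inward rectifier gene, averaged 1.01 ± 0.200 FPKM with RSL3 and 0.799 ± 0.0777 FPKM with DMSO. Kcnj14 averaged 0.750 ± 0.130 and 0.979 ± 0.177 FPKM with RSL3 and DMSO. Kcnn1, the small-conductance channel gene, averaged 0.978 ± 0.181 FPKM with RSL3 and 0.728 ± 0.207 FPKM with DMSO. Kcnma1, the pore of the large-conductance BK channel, averaged 0.405 ± 0.0573 FPKM with RSL3 and 0.561 ± 0.159 FPKM with DMSO. Kcnu1, whose channel in mouse sperm is a relative of BK gated by voltage and alkaline pH, averaged 0.510 ± 0.0326 FPKM with RSL3 and 0.292 ± 0.111 FPKM with DMSO. Its groups did not overlap, but it was listed only through its RSL3 mean. None of these 5 low genes was tested in the filtered fit. In the fit with no filter, where all 49 members were tested, Kcnk3 was again the 1 that passed.

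Auxiliary subunits of potassium channels ranged from Kcnab2 down to Kcnab1. Kcnab2, a Kv beta subunit, stood at 10.3, 7.74 and 10.3 FPKM with RSL3 and 8.25, 8.69 and 8.50 FPKM with DMSO, with overlapping groups (0.13, limma adjusted p = 0.536). Kcnab1, another Kv beta subunit, stood at 0.729, 0.692 and 0.857 FPKM with RSL3, below its 1.07, 1.14 and 1.06 FPKM with DMSO, without passing (-0.25 ± 0.08, adjusted p = 0.102). Kcnab3 averaged 1.16 ± 0.158 and 0.959 ± 0.404 FPKM with RSL3 and DMSO. Kcnip3, which encodes KChIP3, also known as the calcium-binding repressor DREAM, stood at 4.86 ± 0.664 FPKM with RSL3 and 4.74 ± 0.196 FPKM with DMSO (0.02, adjusted p = 0.916). Kcnmb4, the neuronal beta subunit of BK, stood at 3.00 ± 0.180 FPKM with RSL3 and 2.89 ± 0.371 FPKM with DMSO (0.04, adjusted p = 0.833), and so was above the BK pore gene Kcnma1 in both groups.

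**Figure D3:**
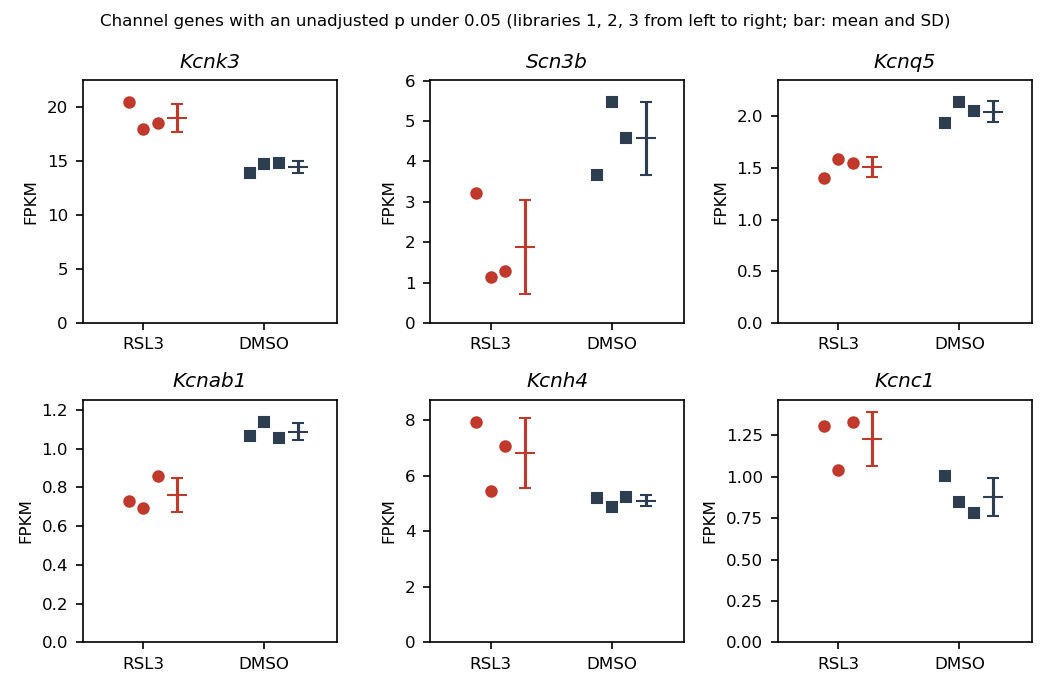
FPKM of 6 tested channel genes with an unadjusted p under 0.05 in each RSL3 and DMSO library, with bars for the mean and SD of 3. In all 6 the groups do not overlap; Kcnk3 is the gene with an adjusted p under 0.05, and the Scn3b value of RSL3 replicate 1 (3.21 FPKM) sits apart from the other RSL3 libraries (1.13 and 1.28 FPKM).

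Among sodium channel genes, the auxiliary gene Scn3b had the highest level over the 6 libraries. Scn3b (ENSMUSG00000049281.16, chromosome 9, 40269217 to 40291618, plus strand), whose protein modulates gating and surface delivery of the pore, stood at 3.21, 1.13 and 1.28 FPKM with RSL3 and at 3.66, 5.47 and 4.58 FPKM with DMSO. All RSL3 libraries lay below all DMSO libraries, but RSL3 replicate 1 lay much nearer to them than the other RSL3 libraries did. Scn3b did not pass (-1.01 ± 0.26, 95% interval -1.63 to -0.40, limma adjusted p = 0.0675), and passed without RSL3 replicate 1 (-1.32 ± 0.14, adjusted p = 0.00457). Over all alternatives its fold change ran from -1.37 to -0.83, with adjusted p up to 0.220.

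The pore genes of sodium channels were low in both groups. Scn9a, which encodes a channel of peripheral and pain-sensing neurons, stood at 2.16, 2.77 and 3.37 FPKM with RSL3 and at 2.83, 3.51 and 2.93 FPKM with DMSO (-0.13, 95% interval -0.44 to 0.19, limma adjusted p = 0.623). Scn8a, a main channel of the axon initial segment in the mature brain, stood at 2.04, 2.55 and 3.38 FPKM with RSL3 and 3.21, 2.85 and 2.95 FPKM with DMSO (-0.15, 95% interval -0.47 to 0.17, adjusted p = 0.567). In both genes the groups overlapped, with RSL3 replicate 1 the lowest library. Scn2a averaged 0.869 ± 0.171 FPKM with RSL3 and 0.814 ± 0.0313 FPKM with DMSO. Scn3a averaged 0.576 ± 0.129 FPKM with RSL3 and 0.477 ± 0.0247 FPKM with DMSO. The pore genes summed to 5.35, 7.02 and 8.23 FPKM in the RSL3 libraries and 7.34, 7.64 and 7.17 FPKM in the DMSO libraries.

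Among calcium channel pore genes, the N-type gene Cacna1b, whose channel triggers transmitter release, was the highest. It stood at 6.32, 6.53 and 7.43 FPKM with RSL3 and 5.71, 6.31 and 6.37 FPKM with DMSO (0.12, 95% interval -0.09 to 0.33, limma adjusted p = 0.458). The L-type gene Cacna1c stood at 3.39 ± 0.174 FPKM with RSL3 and 3.26 ± 0.0493 FPKM with DMSO (0.04, adjusted p = 0.784). All 3 T-type genes, which open near the resting potential, were listed. Cacna1i averaged 2.04 ± 0.0617 FPKM with RSL3 and 2.22 ± 0.128 FPKM with DMSO, Cacna1g 1.37 ± 0.0745 and 1.20 ± 0.0507 FPKM, and Cacna1h 0.879 ± 0.162 and 0.735 ± 0.0645 FPKM. Cacna1g did not overlap between the groups and did not pass (0.11, adjusted p = 0.425). The P/Q-type gene Cacna1a averaged 0.695 ± 0.126 FPKM with RSL3 and 0.527 ± 0.216 FPKM with DMSO.

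Auxiliary calcium channel genes held the highest levels. Cacnb3, a cytoplasmic beta subunit that carries the pore to the membrane, stood at 41.0, 32.2 and 37.3 FPKM with RSL3 and 30.4, 33.6 and 30.7 FPKM with DMSO, with overlapping groups (0.21 ± 0.10, 95% interval -0.01 to 0.44, limma adjusted p = 0.231). Cacnb1 averaged 4.26 ± 0.768 and 4.19 ± 0.199 FPKM with RSL3 and DMSO. Of the gamma subunits, Cacng7, Cacng3, Cacng4 and Cacng8 encode proteins that also bind AMPA-type glutamate receptors and set their trafficking and gating. Cacng7 stood at 51.6, 31.9 and 36.4 FPKM with RSL3 and 35.1, 38.5 and 36.2 FPKM with DMSO, so that only RSL3 replicate 1 left the DMSO range upward (0.10, adjusted p = 0.762), and without that library the value was -0.10. Cacng4 stood at 4.89, 4.41 and 4.81 FPKM with RSL3, below 5.17, 5.46 and 5.30 FPKM with DMSO, without passing (-0.15, adjusted p = 0.295). Cacng3 averaged 9.20 ± 1.12 and 9.89 ± 1.49 FPKM, and Cacng8, under the filter, 1.23 ± 0.398 and 0.819 ± 0.114 FPKM, with RSL3 first in each pair.

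HCN and TRP genes gave overlapping groups at the higher levels. Hcn2 stood at 25.7, 22.9 and 25.8 FPKM with RSL3 and 21.5, 23.6 and 24.4 FPKM with DMSO (0.09, 95% interval -0.09 to 0.28, limma adjusted p = 0.529). With length and GC trends removed its fold change was -0.02. Hcn4 averaged 6.19 ± 0.797 FPKM with RSL3 and 6.08 ± 0.241 FPKM with DMSO, and Hcn3 5.86 ± 0.633 and 5.20 ± 0.334 FPKM. Trpv2, a calcium-permeable channel, stood at 10.3, 10.3 and 11.6 FPKM with RSL3 and 10.9, 10.1 and 10.9 FPKM with DMSO (0.01, 95% interval -0.17 to 0.19, adjusted p = 0.952). Trpm7, a channel fused to a kinase and permeable to magnesium, calcium and zinc, stood at 4.88, 8.85 and 7.95 FPKM with RSL3 and 6.70, 6.71 and 6.82 FPKM with DMSO. RSL3 replicate 1 lay below the DMSO libraries and the other RSL3 libraries above them (0.05 ± 0.18, adjusted p = 0.895). Without RSL3 replicate 1 Trpm7 passed as higher (0.28 ± 0.07, adjusted p = 0.0470).

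The remaining TRP genes were under the filter. Trpm2, whose channel is opened by ADP-ribose and oxidative stress, averaged 1.03 ± 0.180 FPKM with RSL3 and 0.967 ± 0.126 FPKM with DMSO. Trpm4, a calcium-activated channel for monovalent cations, stood at 0.796, 0.660 and 0.760 FPKM with RSL3, above its 0.568, 0.506 and 0.495 FPKM with DMSO. Among the 16 untested members, values ran from 0.192 to 1.59 FPKM, and the groups did not overlap in 4. Trpm4, Kcnu1 and Kcnd1 were higher and Kcnk1 lower in the RSL3 libraries. Kcnu1 and Kcnd1 averaged 0.292 and 0.317 FPKM with DMSO, so they were listed only through RSL3, where they are high. Their separation is no support for a change, and both are included in the member counts that follow. Over all 49 members the groups did not overlap in 14, or 28.6%, against 32.5% of all listed genes; RSL3 was above DMSO in 18.4% of members and 13.7% of listed genes, and below in 10.2% and 18.8%.

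**Figure D4:**
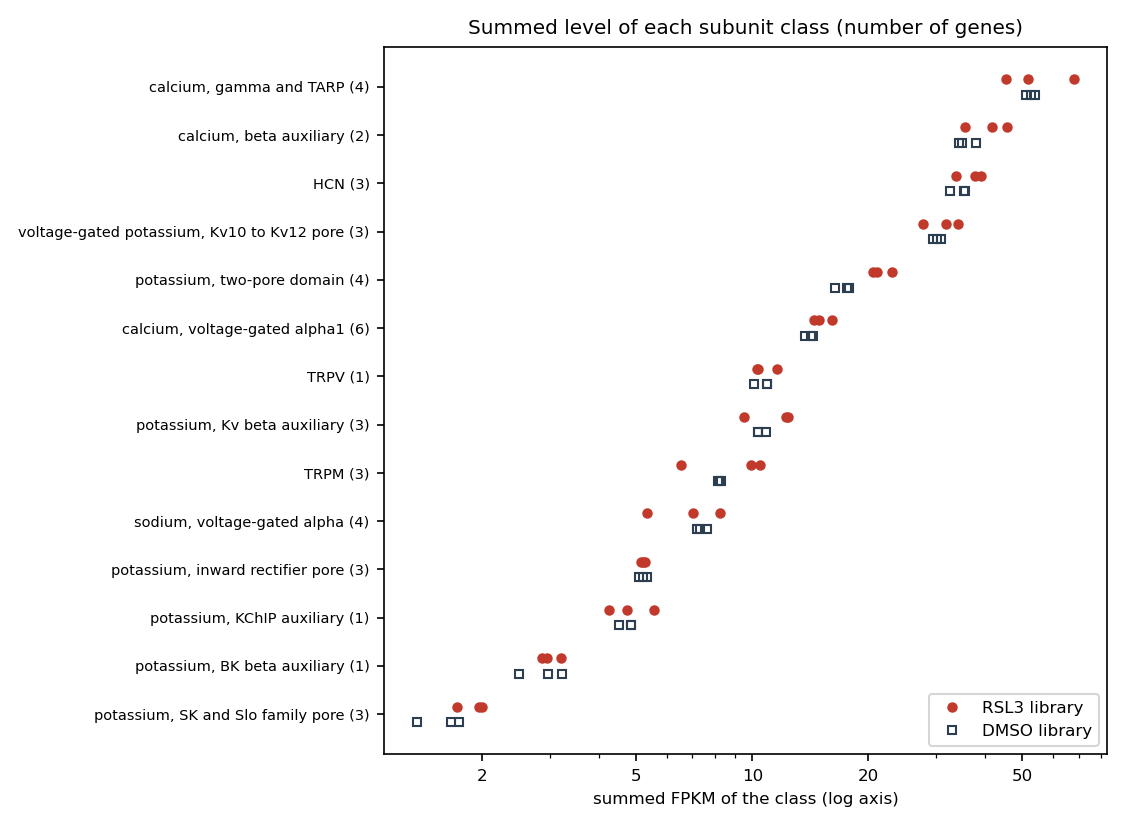
Summed FPKM (log axis) of each subunit class in each RSL3 library (filled circles) and DMSO library (open squares), for 14 classes, with the number of genes in brackets. The tandem pore domain potassium class and the calcium alpha1 class are the ones in which all RSL3 sums lie above all DMSO sums; the sums carry no test.

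Summed by ion, the members' levels overlapped between the groups for potassium and HCN and for calcium and TRP genes, and did not for sodium. Potassium genes summed to 97.2, 79.8 and 92.1 FPKM in the RSL3 libraries and 80.9, 86.4 and 80.9 FPKM in the DMSO libraries. Calcium genes summed to 129, 95.4 and 109.7 FPKM with RSL3 and 101, 106 and 101 FPKM with DMSO. Of this, the gamma subunit genes that also bind AMPA receptors averaged 55.1 FPKM with RSL3 and 52.6 FPKM with DMSO. The calcium pore genes summed to 14.9, 14.5 and 16.1 FPKM with RSL3, above 13.7, 14.2 and 14.3 FPKM with DMSO. HCN genes summed to 39.0, 33.7 and 37.7 FPKM with RSL3 and 32.5, 35.5 and 35.4 FPKM with DMSO, and TRP genes to 16.9, 20.8 and 21.5 FPKM with RSL3 and 19.2, 18.4 and 19.1 FPKM with DMSO. Sodium genes summed to 12.8, 11.4 and 12.2 FPKM with RSL3, below 13.3, 15.1 and 13.9 FPKM with DMSO. Scn3b, which did not pass, averaged 1.87 FPKM with RSL3 and 4.57 FPKM with DMSO. That gap was wider than the gap between the mean sodium sums, 12.1 and 14.1 FPKM. The sums of the sodium pore genes overlapped, at 5.35 to 8.23 FPKM with RSL3 and 7.17 to 7.64 FPKM with DMSO. All 49 together reached 295, 241 and 273 FPKM with RSL3 and 247, 261 and 249.8 FPKM with DMSO, with pore genes at 149 ± 8.95 FPKM with RSL3 and 139 ± 4.22 FPKM with DMSO, and auxiliary genes at 121 ± 20.2 and 113 ± 3.82 FPKM.

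RSL3 replicate 1 differed from RSL3 replicates 2 and 3 in many members. On the log2(FPKM + 1) scale it lay above their mean by 0.93 in Scn3b, 0.58 in Cacng7 and 0.31 in Kcnh4, and below by -0.67 in Trpm7, -0.37 in Scn8a and -0.36 in Scn9a. Across the 33 tested members, which share these libraries, this difference correlated with the GC content of the longest transcript at a Pearson's r of 0.45 and a Spearman's rho of 0.56. Over 10578 tested mRNA genes the values were 0.64 and 0.69. RSL3 replicate 2, set against the other RSL3 libraries, gave -0.60 and -0.69 over these genes and -0.31 and -0.33 over the members. RSL3 replicate 3 gave -0.23 and -0.30 over these genes and -0.29 and -0.37 over the members. These differences share libraries and are not independent, so they do not single out replicate 1. In the difference of replicate 1, Scn3b was among the highest at 47.8% GC, below the median of the members. Median GC content was 56.5% for the 49 members and 50.04% for all mRNA genes. With length and GC trends removed in each library the median fold change was 0.013 for the members and 0.004 for all tested genes. Kcnk3 and Kcnq5 then passed, 2 of 33, where 16% of all genes passed. Without RSL3 replicate 1, Kcnk3, Trpm7 and Scn3b passed, 3 of 33, where 12.1% of all genes passed. Without RSL3 replicate 2, Kcnk3 and Kcnh4 passed, 2 of 33, where 6.9% of all genes passed, and without RSL3 replicate 3 none of 33 passed, where 1.78% of all genes did.

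**Figure D5:**
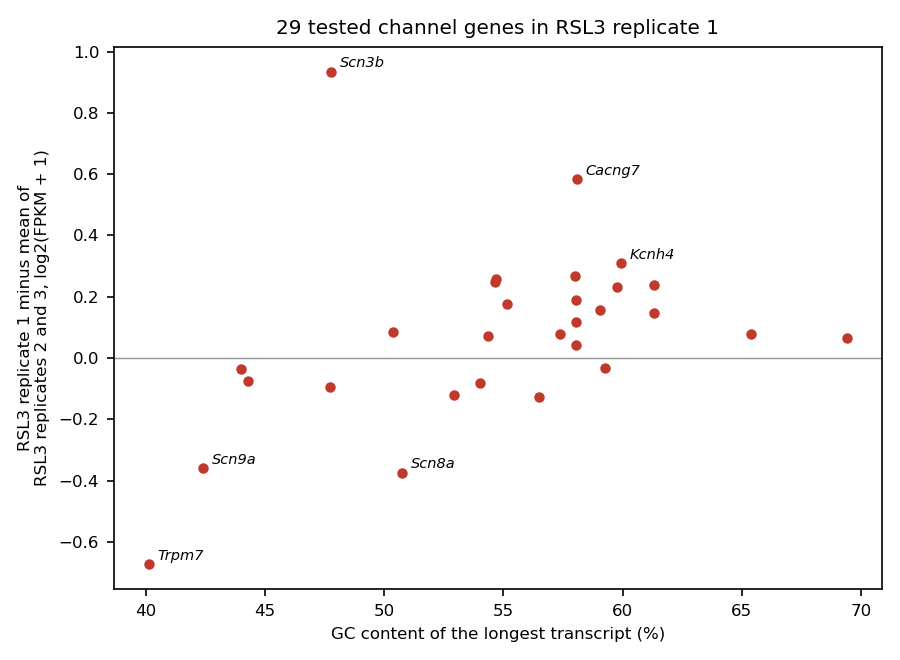
Difference of RSL3 replicate 1 from the mean of RSL3 replicates 2 and 3 on the log2(FPKM + 1) scale against the GC content of the longest transcript, for 29 of the tested channel genes. Trpm7 and Scn9a lie low at the GC-poor end, and Scn8a lies low at 50.8% GC. Cacng7 and Kcnh4 lie high at 58.1% and 60.0% GC, and Scn3b is high at 47.8% GC. Kcnk12 and Hcn2, at the GC-rich end with 69.4% and 65.4% GC, differ little, by 0.06 and 0.08.

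Related channels and partners outside the symbol rule were read from a list of 100 genes, of which 55 were listed and 49 tested. Of these, 3 passed as higher and 4 as lower with RSL3, with a median log2 fold change of 0.00, where 2.46% of all tested genes passed as higher and 3.92% as lower. Of the 49, Hvcn1 and Itpr2 reached the filter through a single group, and Hvcn1 is 1 of the 3 counted as higher. Stac, an adaptor that stabilises L-type calcium channels at the membrane, averaged 5.95 ± 0.228 FPKM with RSL3 and 11.8 ± 0.195 FPKM with DMSO (-0.88 ± 0.07, limma adjusted p = 0.00253). The cyclic nucleotide-gated channel gene Cnga3 averaged 2.10 ± 0.234 FPKM with RSL3 and 4.07 ± 0.167 FPKM with DMSO (-0.71, adjusted p = 0.00720). Calm3, one of the calmodulin genes, whose product is the calcium sensor of many channels, averaged 161 ± 14.0 FPKM with RSL3 and 202 ± 4.08 FPKM with DMSO (-0.33, adjusted p = 0.0456). Unc79, a subunit of the sodium leak channel complex, averaged 3.11 ± 0.245 FPKM with RSL3 and 4.29 ± 0.187 FPKM with DMSO (-0.37, adjusted p = 0.0497). The proton channel gene Hvcn1 averaged 1.42 ± 0.0710 FPKM with RSL3 and 0.759 ± 0.108 FPKM with DMSO (0.46, adjusted p = 0.0207). All its DMSO libraries were under 1 FPKM, at 0.655, 0.752 and 0.870 FPKM, so it was tested only through its RSL3 values and its call is no support for a change. The mechanosensitive channel genes Tmem63a and Tmem63c averaged 7.11 ± 0.455 and 11.6 ± 0.192 FPKM with RSL3 against 5.29 ± 0.287 and 9.33 ± 0.269 FPKM with DMSO (0.37 and 0.29, adjusted p = 0.0466 and 0.0495).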

How the data were processed

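RNA of 3 RSL3 and 3 DMSO samples of retinoic acid-differentiated N2a cells was sequenced, with 1 table of mRNA, lncRNA and circRNA values per library. For mRNA and lncRNA the authors deposited FPKM. Per the submitters' processing notes, cutadapt, HISAT2, StringTie 1.3.3 and the build GRCm38 were used; no source used here tells their roles, the annotation release, the use of strand or how low genes were removed. For circRNAs the deposited column is named CPM but its totals differ between libraries, so it was treated as a signal. Divided by the smallest value above 0 of a library, 100% of them lay within 0.01 of a whole number of reads. Positions, transcript length and GC content came from GENCODE M21.

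The two-sided moderated test of limma 3.58.1 in R 4.3.3, its variance prior following the mean level, was run on log2(FPKM + 1) for mRNA genes that reached 1 FPKM in 3 or more of the 6 libraries, with Benjamini-Hochberg adjustment over all of them and a threshold of 0.05. Errors are SD of 3 libraries for FPKM and SE for fold changes. The fit was checked on simulated data with independent noise. Only genes at higher levels than most members were shifted there, by larger changes than most members show. The check therefore does not cover low genes or small changes. Alternatives were pseudocounts of 0.1 and 0.5, no filter, a filter of 2 FPKM, no filter with a pseudocount of 0.1, median-ratio scaling, quantile normalization, no variance trend, length and GC trends removed, a replicate block, both of these together, and each library left out. Same-numbered libraries deviated from their group means with correlations of -0.145, 0.0487 and -0.0623 across genes, and were not treated as pairs. A count test of the circRNA reads in edgeR 4.0.16 was added after seeing the data.

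Values are given for members that passed, the 10 with the highest level, the highest of each subunit class and, per direction, the 5 lowest unadjusted p-values among those not passing, 25 in all, with other members added; the results of some members are not reported here. Members, classes and lists were chosen with earlier results of these data known.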

Additional observations from a re-analysis of the deposited data

How the results depend on the processing

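The number of mRNA genes called, 676 (261 higher and 415 lower), stayed within 1.5 times of this under both other pseudocounts, no filter with either pseudocount, the 2 FPKM filter, both scalings and no variance trend. It was 1693 (765 and 928) with length and GC trends removed and 253 (88 and 165) with the replicate block. Left out singly, the libraries gave 137 to 1276 genes, 47 to 520 higher and 84 to 756 lower. The number of channel genes called was 2 with length and GC trends removed, 0 with the replicate block and 0 to 3 without single libraries; in every other alternative it was 1, Kcnk3. Kcnk3 had a log2 fold change of 0.37 with the replicate block (adjusted p = 0.106) and of 0.32 to 0.41 without single libraries, and its direction was the same in all 17 alternatives. Kcnh4 passed without RSL3 replicate 2, Kcnq5 with trends removed, and Trpm7 and Scn3b without RSL3 replicate 1. The replicate block changed the call of no other channel gene tested, and the labels state no pairing. The cause of these shifts was not tested. FPKM carries no depth, so the counting error of the 16 members under the filter is unknown.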

Other observations

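Other RNAs at the channel loci were sparse. The lncRNA Gm11629, on the other strand at Cacnb1, averaged 0.55 ± 0.15 FPKM with RSL3 and 0.55 ± 0.14 FPKM with DMSO. Gm16333, on the other strand at Kcnab2, averaged 0.34 ± 0.59 FPKM with RSL3 and 0.82 ± 0.33 FPKM with DMSO. The lncRNA Kcnq1ot1, transcribed antisense to the potassium channel gene Kcnq1 and known for silencing neighbouring genes on the paternal chromosome, stood at 0.933, 1.36 and 1.5 FPKM in RSL3 libraries and 1.42, 1.17 and 1.15 FPKM in DMSO libraries, with overlapping groups. Kcnq1 itself was not among the genes analysed. Exons of 16 of the 49 members overlap exons of a gene on the other strand.

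Of 3168 circRNAs, 1754 were named otherwise than by coordinates and are not placed here. Of the 1414 named by coordinates, 3 lay within a channel gene. Each had 4 back-splice reads in a single library: 1 within Cacna1a in RSL3 replicate 2 (chromosome 8, 84556704 to 84612412), 1 within Cacna1b in DMSO replicate 3 (chromosome 2, 24631899 to 24650628) and 1 within Scn3b in DMSO replicate 3 (chromosome 9, 40269968 to 40270047). The count test in edgeR called 1 of 1662 circRNAs with reads in at least 3 libraries, 106 had an unadjusted p under 0.05, and none of the 3 at channel genes was tested.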
